A study of Mus musculus with 14 samples.

Results

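Eph receptors and ephrins are cell surface partners that steer growing axons and dendrites, and 10 genes of the A class were followed here: 6 receptors (Epha3, Epha4, Epha5, Epha6, Epha7 and Epha8) and 4 ligands (Efna1, Efna2, Efna3 and Efna5). They were chosen by gene symbol, as rows present in both count tables, which hold 25229 and 55353 symbols, with 24690 in both. All 10 passed the low-count filter in both experiments.

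Polyadenylated RNA of layer II/III tissue, microdissected from the mouse cerebral cortex at postnatal day 5, was sequenced in 14 libraries of 4 groups. The series asks how loss of Lhx2, a LIM-homeodomain transcription factor, acts on the dendrites of layer II/III neurons when it happens in dividing progenitors or in neurons already born. All animals carried 2 floxed Lhx2 alleles (Lhx2lox/lox). In the progenitor experiment, embryos received an EGFP plasmid (control, n = 4) or a Cre-EGFP plasmid (labelled mutant, n = 4) by in utero electroporation at E15.5, an embryonic stage at which upper-layer neurons are born. In the postmitotic experiment all embryos received the EGFP plasmid, and their genotype was Lhx2lox/lox (control, n = 3) or NexCre/+; Lhx2lox/lox (labelled mutant, n = 3). NexCre is expressed from the Neurod6 gene in newborn excitatory neurons of the cortex, so it also acts outside the electroporated cells, while the Cre plasmid reaches electroporated cells and their progeny. The share of dissected cells that carried a plasmid is unknown here, and libraries are not stated there to be separate animals. The p-values therefore set the difference between groups against the spread between libraries, part of which may be technical.

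EphA receptors are tyrosine kinases that bind ephrin-A ligands held on the surface of a neighbouring cell by a lipid anchor. Binding is promiscuous within the class. It signals into the receptor-bearing cell (forward) and, through partner proteins, into the ligand-bearing cell (reverse), usually making a growth cone retract. In the cortex this system is known for graded expression across areas, for sorting thalamocortical axons and for shaping dendrites and spines.

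Progenitor libraries held 22677019 to 29497595 counts and postmitotic libraries 21605777 to 25891416, and each progenitor control was deeper than each progenitor library labelled mutant. Lhx2 itself was not lower in libraries labelled mutant. It had 131, 120, 139 and 120 CPM (counts scaled to a common library total) in progenitor controls and 127, 114, 140 and 137 CPM in progenitor libraries labelled mutant, a log2 fold change of 0.02 ± 0.07 (SE). It had 146, 150 and 143 CPM in postmitotic controls and 171, 182 and 184 CPM in those labelled mutant, a log2 fold change of 0.29 ± 0.06 (edgeR adjusted p = 0.0276). That call was lost on leaving out any 1 postmitotic library except mutant 1, with edgeR adjusted p rising to 0.184. A gene's count also takes in reads from a transcript that has lost an exon. The count is thus no check of the deletion, and groups go by their labels. Adjusted p-values are from the quasi-likelihood test of edgeR, with Benjamini-Hochberg adjustment over all tested genes. Y-linked counts exceeded 1 CPM in 0 of 4 progenitor controls, 3 of 4 progenitor libraries labelled mutant, 2 of 3 postmitotic controls and 1 of 3 postmitotic libraries labelled mutant, and progenitor mutant 3 combined 99.4 CPM of Y-linked counts with 554 CPM of Xist. Of the 12 markers of upper-layer neurons none was at 0 in a whole group, and their summed level was 2384 to 2924 CPM over the 14 libraries.

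In controls, Epha4 was the leading receptor and Efna3 the leading ligand in both experiments. Levels between genes are given as CPM per kilobase of merged exon. Epha4, a receptor that also binds ephrin-B ligands, stood at 35.6 ± 2.57 CPM per kilobase in progenitor controls (SD, n = 4) and at 35.4 ± 2.85 in postmitotic controls (SD, n = 3). That was 52% and 52.1% of the summed level of the 6 receptors. In progenitor controls Epha8 (11.8 ± 1.5), Epha5 (8.93 ± 0.98) and Epha7 (7.16 ± 0.597) followed in CPM per kilobase, and each overlapped the next in order over the 4 libraries. In postmitotic controls the order was Epha5 (9.86 ± 0.578), Epha8 (9.18 ± 1.34) and Epha7 (7.84 ± 0.543), again with overlap between neighbours. Epha3 (3.30 ± 0.409 and 4.26 ± 0.924 CPM per kilobase) and Epha6 (1.71 ± 0.512 and 1.38 ± 0.343) were the lowest receptors and did not overlap each other in either experiment.

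Among the ligands, Efna3 stood at 17.4 ± 0.703 CPM per kilobase in progenitor controls and at 18.7 ± 0.673 in postmitotic controls, 37% and 40.6% of the ligand sum. Efna5 came next in progenitor controls (14.8 ± 1.22 CPM per kilobase) and overlapped Efna3 there, with Efna2 below both (12.9 ± 0.624). In postmitotic controls Efna2 (14.4 ± 0.764) was above Efna5 (11.4 ± 0.444) in each library. The 2 sets of controls come from separate tables, and no test compared levels between them. Efna1 was low throughout, at 1.91 ± 0.470 and 1.51 ± 0.238 CPM per kilobase, with 58 to 123 counts per library over all 14. The spread between control libraries differed among the members. The coefficient of variation of CPM in progenitor controls was 29.9% for Epha6, 24.6% for Efna1 and 4.05% for Efna3. In postmitotic controls it was 24.9% for Epha6, 21.7% for Epha3, 15.8% for Efna1 and 3.61% for Efna3.

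**Figure D1:**
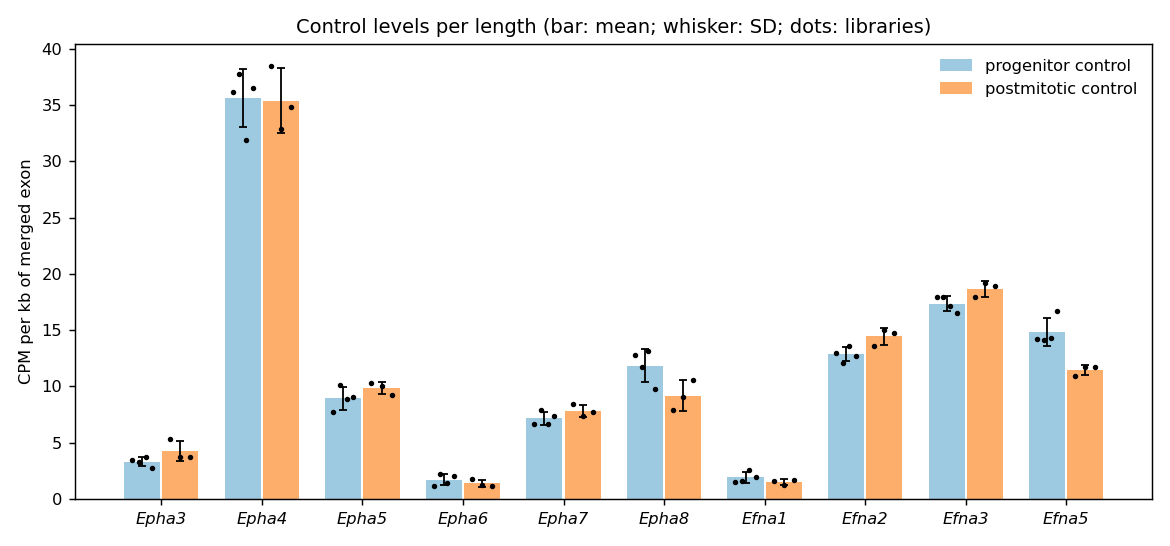
Levels of the 10 members in control libraries, in CPM per kilobase of merged exon (bars, means; whiskers, SD; dots, libraries; n = 4 progenitor and n = 3 postmitotic controls). Epha4 is the highest member in both sets at 35.6 and 35.4 CPM per kilobase, and Epha6 and Efna1 are the lowest.

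The postmitotic comparison concerns Cre that acts in neurons that no longer divide. Epha7 and Epha5 rose and Efna5 fell in the libraries labelled mutant, so 3 of 10 members passed the test, against 1.96% of the 17775 genes tested (0.895% higher, 1.06% lower). The same 3 members were those whose groups did not overlap in CPM, against 16.4% of tested genes (7.98% higher, 8.43% lower). Over all members the median log2 fold change was 0.08, and that of all tested genes was -0.00. In bulk tissue, fewer cells of a type and less RNA per cell cannot be told apart. Markers of deep-layer neurons moved with this label: their summed level was 472 to 484 CPM in controls and 571 to 700 CPM in libraries labelled mutant, and their part in the results below was not tested.

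Epha7, a receptor studied for its role in cortical dendrite growth and spine formation, showed the largest change among the receptors that passed the test. Its level was 83.4, 72.9 and 76.1 CPM in the 3 controls and 123, 134 and 135 CPM in the 3 libraries labelled mutant. The highest control lay well below the lowest library labelled mutant. The log2 fold change was 0.75 ± 0.07 (SE; 95% interval 0.60 to 0.91), or 68.4% higher, at an edgeR adjusted p = 8e-05. It remained called under each alternative run, with log2 fold changes of 0.71 to 0.81 when 1 library was left out.

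Epha5, a receptor of forebrain axons and synapses, moved less. It had 173, 167 and 154 CPM in controls and 190, 205 and 220 CPM in libraries labelled mutant. The groups did not overlap, but control 1 and mutant 1 were close. The log2 fold change was 0.31 ± 0.07 (SE; 95% interval 0.16 to 0.47), at an edgeR adjusted p = 0.0385. Its direction held under each alternative, but the call ended without control 2, control 3, mutant 2 or mutant 3, with edgeR adjusted p = 0.134, 0.241, 0.107 and 0.0937. It was called in 6 of 12 other alternatives. The adjusted p was 0.122 with the replicate number as a block, 0.0658 with no scaling factors, 0.0649 without the robust step and 0.0744 in 1 fit of all libraries (edgeR), and 0.0729 with limma-voom.

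The other 4 receptors did not pass the test. Epha6, a receptor of neuronal projections, had 9.36, 6.35 and 6.11 CPM in controls and 8.49, 15.9 and 14.5 CPM in libraries labelled mutant. Mutant 1 lay among the controls and mutants 2 and 3 above them, with a log2 fold change of 0.83 ± 0.25 (edgeR adjusted p = 0.212). Without mutant 1 it was 1.06 (edgeR adjusted p = 0.0102), and DESeq2 on all 6 libraries gave an adjusted p = 0.00558. No other fit that left out 1 library called Epha6 (log2 fold change down to 0.66, edgeR adjusted p up to 0.539). Epha3, a receptor of axon guidance and cell adhesion, had 46.3, 32.5 and 32.2 CPM in controls and 46.6, 46.2 and 52.5 CPM in libraries labelled mutant. Control 1 stood at the level of mutants 1 and 2, and the log2 fold change was 0.39 ± 0.13 (edgeR adjusted p = 0.248). Without control 1 it was 0.58 (edgeR adjusted p = 0.0062). No other fit that left out 1 library called Epha3 (0.30 to 0.43, edgeR adjusted p = 0.339 to 0.601). Epha4, the most abundant member, gave 0.02 ± 0.07 on the log2 scale, with a 95% interval of -0.13 to 0.18. Epha8, a receptor of midbrain and forebrain projections, gave -0.21 ± 0.10, with an interval of -0.44 to 0.01.

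Efna5 encodes ephrin-A5, a ligand graded across cortical areas that binds several EphA receptors and also EphB2. Its level was 43.9, 47.0 and 47.0 CPM in controls and 28.6, 24.7 and 22.2 CPM in libraries labelled mutant. All 3 libraries labelled mutant were far below the controls, which were close together. Efna5 fell by 0.87 ± 0.10 on the log2 scale (SE; 95% interval -1.08 to -0.66), a change of -45.2%, at an edgeR adjusted p = 0.000243. It remained called under each alternative, with log2 fold changes of -0.97 to -0.79 when 1 library was left out.

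The other 3 ligands did not pass the test, with log2 fold changes of 0.13 ± 0.20 for Efna1, -0.07 ± 0.12 for Efna2 and -0.15 ± 0.14 for Efna3. These ephrins serve as repellents or attachment cues for EphA-bearing cells. Efna3 had 43.6, 46.7 and 45.9 CPM in controls and 41.9, 31.3 and 50 CPM in libraries labelled mutant. Efna2 had 28.9, 31.9 and 31.4 CPM in controls and 28.5, 24.0 and 35.4 CPM in libraries labelled mutant. For both, mutant 2 was the lowest and mutant 3 the highest of the 6 libraries, so the libraries labelled mutant enclosed the controls. Without mutant 2 the log2 fold changes were 0.02 for Efna3 and 0.06 for Efna2.

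**Figure D2:**
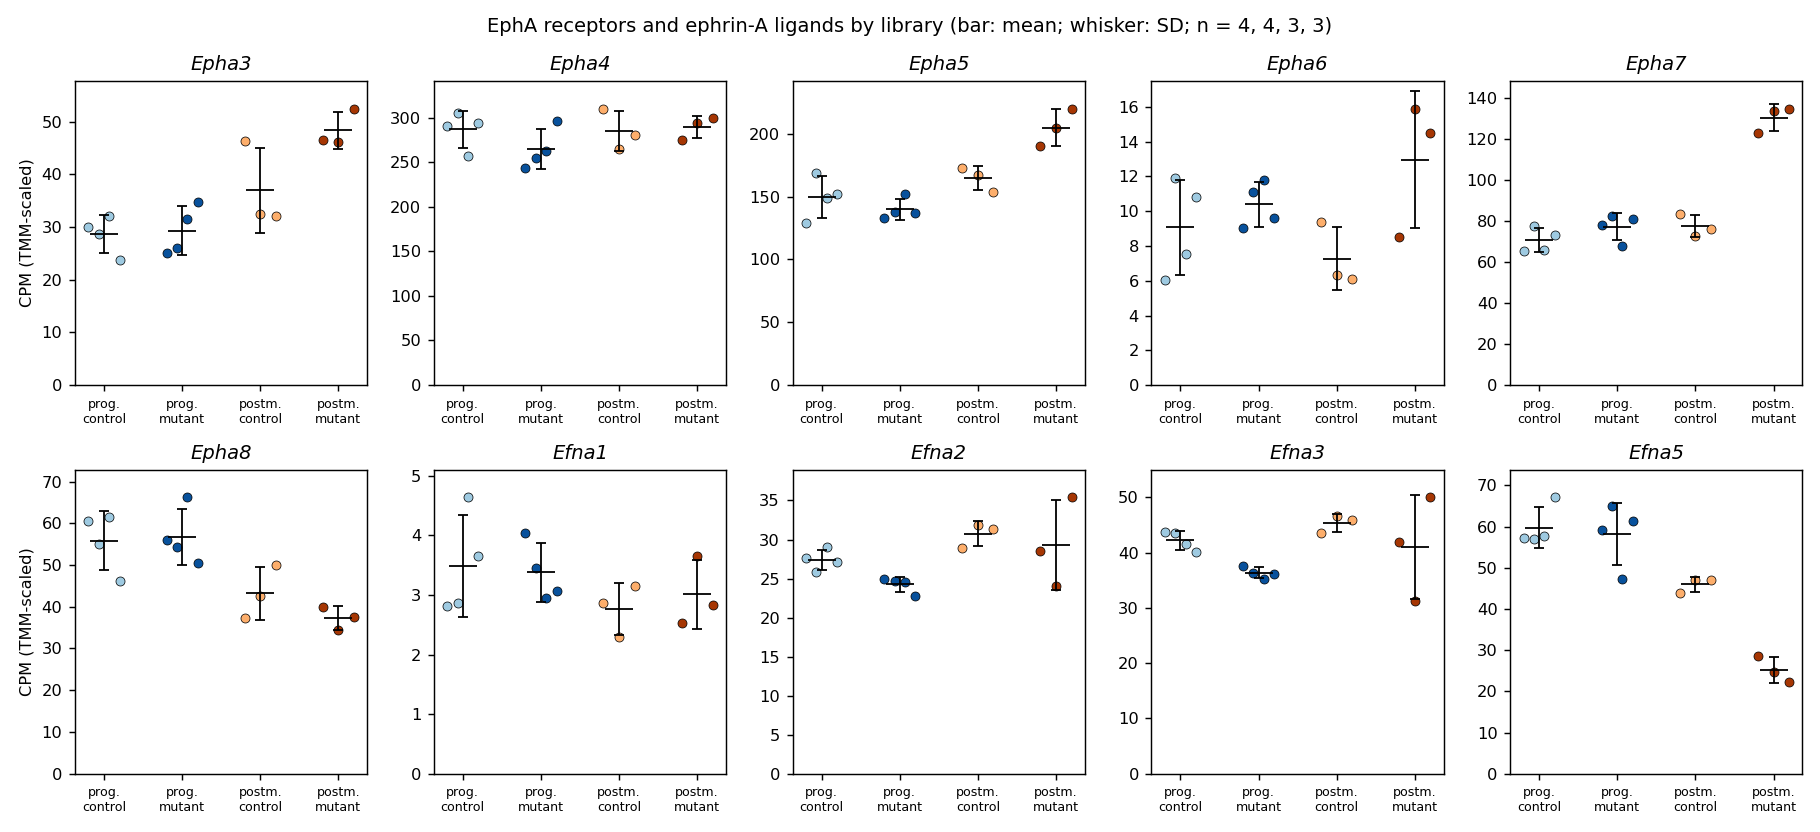
CPM of each member in each library (dots), with the mean (bar) and SD (whisker) of progenitor controls and progenitor libraries labelled mutant (n = 4 each) and of postmitotic controls and postmitotic libraries labelled mutant (n = 3 each). The postmitotic libraries labelled mutant stand apart for Epha7 (123 to 135 CPM against 72.9 to 83.4) and Efna5 (22.2 to 28.6 against 43.9 to 47), while most other panels overlap.

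The 250 bases before the RefSeq starts of Epha5, Epha7 and Efna5 are shown because these 3 members passed the postmitotic test. Capitals mark TAAT, the core that homeodomain proteins as a class recognise, and ATTA, the same core on the other strand. All 10 members were found by symbol in the RefSeq promoter table (GRCm38.p6), and the letters are written 5′ to 3′ along the strand of the gene. Epha7 has 2 entries there that overlap, and the downstream one is shown; the upstream one (chr4:28812881-28813130) held 1 match of the core.
Epha7, chr4:28812895-28813144, plus strand: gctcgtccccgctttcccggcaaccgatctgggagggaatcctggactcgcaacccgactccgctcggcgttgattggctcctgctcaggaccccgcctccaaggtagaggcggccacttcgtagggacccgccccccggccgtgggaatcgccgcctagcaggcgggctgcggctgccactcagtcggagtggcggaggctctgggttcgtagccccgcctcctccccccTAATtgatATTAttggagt
Epha5, chr5:84417383-84417632, minus strand: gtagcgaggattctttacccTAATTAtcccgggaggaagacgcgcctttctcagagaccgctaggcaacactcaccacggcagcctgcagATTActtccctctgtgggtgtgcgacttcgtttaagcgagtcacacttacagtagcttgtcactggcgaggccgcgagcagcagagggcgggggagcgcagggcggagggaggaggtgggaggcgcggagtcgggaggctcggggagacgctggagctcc
Efna5, chr17:62881318-62881567, minus strand: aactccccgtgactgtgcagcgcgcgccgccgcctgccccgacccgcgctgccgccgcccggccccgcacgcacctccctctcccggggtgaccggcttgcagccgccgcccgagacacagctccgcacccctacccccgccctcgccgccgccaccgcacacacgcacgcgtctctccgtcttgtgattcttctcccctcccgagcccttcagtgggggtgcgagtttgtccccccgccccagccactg
The Epha5 window held 3 matches of the core counted on both strands, of which 2 overlap in the palindrome TAATTA. The Epha7 window held 2 matches close to the start, and the Efna5 window held 0. Of 32851 mouse promoters of the same length, 54.9% held the core on either strand, so a match of the core is common. TAATTA was less common, at 4.84%. Of the members not shown, Efna1 also held TAATTA, in 1 of its 2 entries, and it did not pass in either experiment. All 3 windows were rich in G and C (62.4% in Epha5, 66.8% in Epha7 and 74.8% in Efna5, against a median of 52.4% over all promoters). A match is a description of letters and not a binding site.

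In the genome (GENCODE M21 on GRCm38/mm10), Epha7 spans 28813131 to 28967499 on the plus strand of chromosome 4, and Epha5 spans 84054761 to 84417382 on the minus strand of chromosome 5. Efna5 spans 62604184 to 62881317 on the minus strand of chromosome 17. No annotated gene overlaps an exon of these 3. Efna1 and Efna3 are neighbours on chromosome 3, with a gap of 32.76 kb, and Efna4 follows Efna3 after 10.42 kb. The antisense gene Gm15998 overlaps 344 exon bases of Efna3 (14.1%) and Gm9017 overlaps 107 exon bases of Epha6 (2.02%), and whether counting used strand is not stated in what was read here.

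With a receptor up and a ligand down, the balance of the members differed between postmitotic groups. The level of Epha7 per kilobase divided by that of Efna5 was 0.774, 0.632 and 0.660 in controls and 1.75, 2.21 and 2.48 in libraries labelled mutant. Per kilobase, Epha7 was the lower of the pair in every control and the higher in every postmitotic library labelled mutant. Before division by length, Epha7 was the higher in postmitotic controls too (72.9 to 83.4 against 43.9 to 47 CPM). Epha7 made up 11.5% to 11.7% of the receptor sum in controls and 16.9% to 17.4% in libraries labelled mutant. Efna5 made up 24.8% of the ligand sum in each control and 18.2%, 19% and 12.5% in libraries labelled mutant. The receptor sum was 72.3, 64.2 and 67.2 CPM per kilobase in controls and 73.4, 77.8 and 80.7 in libraries labelled mutant. The ligand sum was 43.9, 47.1 and 47.0 in controls and 39.1, 32.2 and 44.2 in libraries labelled mutant. Epha4 remained the leading receptor in all of these libraries, at 46% to 53.2% of the receptor sum. These ratios were formed after the values of both genes were known and carry no test.

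**Figure D3:**
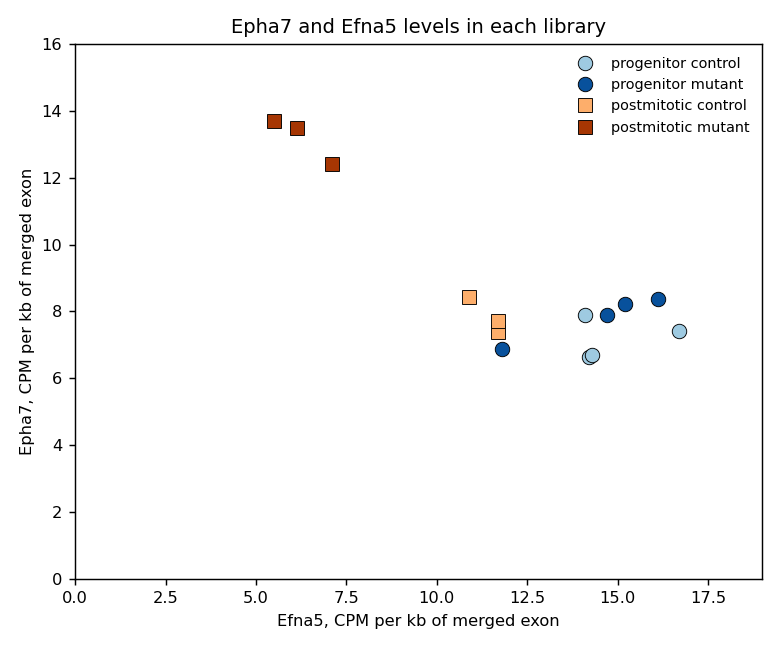
Epha7 level (vertical axis) against Efna5 level (horizontal axis), both in CPM per kilobase of merged exon, 1 point per library. The 3 postmitotic libraries labelled mutant lie apart at high Epha7 and low Efna5, and the progenitor libraries of both labels and the postmitotic controls lie at lower Epha7 and higher Efna5.

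The progenitor comparison concerns Cre that was given to dividing cells. Only Efna3 passed the test here, 1 of 10 members, against 23.4% of the 15295 genes tested (12% higher, 11.4% lower). Groups did not overlap in CPM for Efna2 and Efna3, 2 of 10, against 27% of tested genes (13.7% higher, 13.3% lower). Both shares were below those of all genes, but 10 members are few and no test compared the shares. The median log2 fold change of the members was -0.04, and that of all tested genes was 0.00.

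Efna3, the leading ligand per kilobase, had 43.7, 43.6, 41.6 and 40.1 CPM in controls. Libraries labelled mutant had 37.6, 36.4, 35.3 and 36.2 CPM. All 4 libraries labelled mutant lay below all 4 controls, with little spread in either group. Efna3 fell by 0.22 ± 0.05 on the log2 scale (SE; 95% interval -0.33 to -0.10), a change of -13.9%, at an edgeR adjusted p = 0.0137. The call held without any 1 library, with edgeR adjusted p no higher than 0.0459. It was lost with Y-linked CPM as a covariate (log2 fold change -0.17, edgeR adjusted p = 0.263), where the number of libraries with Y-linked counts differs between the groups. It was also lost in 1 fit of all 14 libraries (-0.21, edgeR adjusted p = 0.119).

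Efna2 had 27.6, 25.8, 29.0 and 27.1 CPM in controls and 24.9, 24.7, 24.6 and 22.8 CPM in libraries labelled mutant. The groups did not overlap, but the log2 fold change of -0.17 ± 0.06 did not pass the test (edgeR adjusted p = 0.0584). Efna5 had 57.2, 56.9, 57.8 and 67.1 CPM in controls and 59.1, 64.9, 47.4 and 61.3 CPM in libraries labelled mutant. The groups overlapped, and the log2 fold change of -0.04 ± 0.09 had a 95% interval of -0.24 to 0.17. Efna1 gave -0.05 ± 0.19 at 2.81 to 4.64 CPM.

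Of the 6 receptors 0 passed the progenitor test by edgeR, DESeq2 or limma-voom, and 0 had an unadjusted edgeR p under 0.05. Of all 15295 genes tested, edgeR called 23.4%, and 5676 had an unadjusted edgeR p under 0.05. Epha7 had 65.6, 77.9, 66.1 and 73.3 CPM in controls and 78.0, 82.7, 67.9 and 81.1 CPM in libraries labelled mutant, a log2 fold change of 0.13 ± 0.08 (95% interval -0.03 to 0.29). Epha5 had 129, 169, 149 and 152 CPM in controls and 133, 138, 152 and 137 CPM in libraries labelled mutant, a log2 fold change of -0.09 ± 0.08 (95% interval -0.26 to 0.07). The groups overlapped for both. Epha4 gave -0.12 ± 0.07 (95% interval -0.27 to 0.04), Epha3 0.03 ± 0.12 (-0.23 to 0.30), Epha8 0.02 ± 0.10 (-0.21 to 0.25) and Epha6 0.19 ± 0.19 (-0.24 to 0.63) on the log2 scale. The Epha7 to Efna5 ratio per kilobase was 0.445 to 0.558 in progenitor controls and 0.520 to 0.584 in progenitor libraries labelled mutant, so these ranges overlapped.

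The difference between the experiments was tested directly, as the postmitotic log2 fold change minus the progenitor one. It passed for Epha5, Epha7 and Efna5, 3 of 10 members, against 6.94% of the 15643 genes tested (3.1% higher, 3.84% lower). Epha7 differed by 0.62 ± 0.11 (SE; 95% interval 0.39 to 0.86; edgeR adjusted p = 0.00389). Efna5 differed by -0.83 ± 0.14 (95% interval -1.13 to -0.53; edgeR adjusted p = 0.00316). Both held under each of the 5 alternatives run for the difference and without any 1 of the 14 libraries. The Y-linked covariate was not among these alternatives. Epha5 differed by 0.41 ± 0.11 (95% interval 0.17 to 0.64; edgeR adjusted p = 0.0377). That call was lost in 10 of 14 fits that left out 1 library (all except progenitor controls 1 and 3, progenitor mutant 3 and postmitotic mutant 1), with differences of 0.34 to 0.46 and edgeR adjusted p up to 0.0855, and with the replicate block (edgeR adjusted p = 0.0673). The other 7 members did not pass, and their intervals ran from -0.58 to 0.11 for Epha8 up to -0.14 to 1.40 for Epha6.

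**Figure D4:**
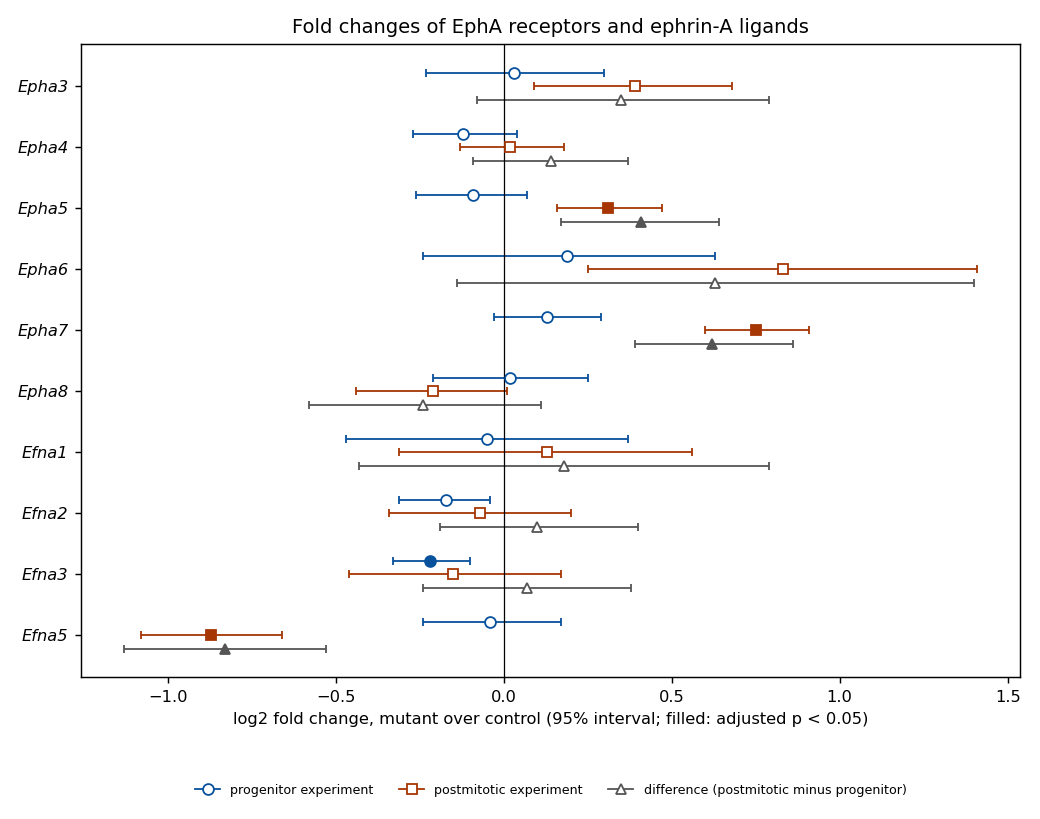
Log2 fold changes of libraries labelled mutant over control for each member in the progenitor experiment (circles) and the postmitotic experiment (squares), and their difference (triangles), with 95% intervals; filled symbols passed an adjusted p of 0.05. Epha7 and Efna5 lie furthest from 0 among the filled symbols, at 0.75 and -0.87 in the postmitotic experiment.

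The authors' deposited table for the progenitor experiment called the same member, Efna3, with a log2 fold change of -0.22 and an adjusted p of 0.00318. The authors' deposited table for the postmitotic experiment called Epha7 (0.72, adjusted p 1.63e-07) and Efna5 (-0.76, adjusted p 2.2e-05), and listed Epha5 at 0.22 with an adjusted p of 0.364. In that table the authors' mean counts of all 10 members matched libraries 1 and 2 of each group within 0.1%, and those of 0 members matched all 6 libraries. In libraries 1 and 2 alone, Epha5 had a log2 fold change of 0.22 (edgeR adjusted p = 0.313).

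Of the other 4 genes of the A class 0 passed in either experiment by edgeR, DESeq2 or limma-voom, and at an unadjusted edgeR p under 0.05 there were 0 in the progenitor and 1, Epha10, in the postmitotic comparison. Over all genes, 5676 of 15295 (progenitor) and 2024 of 17775 (postmitotic) had an unadjusted edgeR p under 0.05. Epha10, a receptor without kinase activity, gave log2 fold changes of -0.16 ± 0.08 (progenitor) and -0.34 ± 0.14 (postmitotic). Efna4, a ligand, gave 0.39 ± 0.19 and -0.01 ± 0.15, and Epha2, a receptor of epithelia, gave 0.06 ± 0.21 and -0.31 ± 0.26. Epha1 stood at 0.432 ± 0.0879 CPM in progenitor controls and 0.286 ± 0.197 CPM in postmitotic controls, gave 0.09 ± 0.43 in the progenitor experiment and was not tested in the postmitotic one.

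Of the 8 genes of the B class, whose ligands span the membrane, 1 passed by edgeR in each experiment (12.5%, against 23.4% of all tested genes in the progenitor and 1.96% in the postmitotic comparison). DESeq2 called 2 and limma-voom 0 in the progenitor comparison, and each called 1 in the postmitotic comparison. Over all genes they called 4000 and 3571 of 15295 (progenitor) and 524 and 260 of 17775 (postmitotic). Ephb3, a receptor of commissural axons, stood at 26.7, 26.8 and 26.5 CPM in postmitotic controls and at 18.8, 18.7 and 19.9 CPM in postmitotic libraries labelled mutant, without overlap. It fell by 0.48 ± 0.09 on the log2 scale (edgeR adjusted p = 0.0108). Without postmitotic control 2 or control 3 the edgeR adjusted p was 0.0677 and 0.0543, and with the replicate block 0.0538. Ephb1, a receptor of axon guidance at the midline, rose by 0.26 ± 0.09 in the progenitor experiment (edgeR adjusted p = 0.048), with overlapping groups. That call was lost on leaving out any 1 progenitor library other than control 4 or mutant 4, with log2 fold changes of 0.17 to 0.28 and edgeR adjusted p up to 0.106. Ephb1 was called there in 4 of 11 other alternatives, and its edgeR adjusted p was 0.06 with the replicate block. Ephb1 gave 0.27 ± 0.10 in the postmitotic experiment.

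The remaining members of the B class did not pass within an experiment by edgeR. Their progenitor and postmitotic log2 fold changes were 0.12 ± 0.06 and 0.22 ± 0.06 for Ephb2, a synaptic receptor, 0.10 ± 0.16 and -0.15 ± 0.15 for Ephb4, a vascular receptor, and 0.05 ± 0.08 and -0.24 ± 0.07 for the kinase-inactive Ephb6. They were 0.18 ± 0.07 and -0.03 ± 0.06 for Efnb2, a vascular and neuronal ligand. Efnb1, an X-linked ligand, gave -0.13 ± 0.07 and 0.28 ± 0.10, a difference of 0.41 ± 0.12 (edgeR adjusted p = 0.0437). DESeq2 called Efnb3, a midline ligand, in the progenitor experiment (-0.19, adjusted p = 0.0338), as did edgeR without progenitor control 1 (adjusted p = 0.0334) or mutant 2 (0.0238) and in 1 fit of all libraries (0.0357). That fit also called Efnb2 (0.0385), as did edgeR without progenitor control 3 (0.0492) or with the Y-linked covariate (0.0485), and Ephb6 was called in the postmitotic experiment without control 1 (0.0415). By edgeR on all libraries, Efnb3 gave -0.18 ± 0.06 and 0.16 ± 0.06, a difference of 0.34 ± 0.09 (edgeR adjusted p = 0.0312). Both differences were lost with the replicate block (edgeR adjusted p = 0.126 and 0.057). They were also lost on leaving out 1 library in 11 of 14 fits for Efnb1 (all except progenitor control 1, progenitor mutant 4 and postmitotic control 2; 0.33 to 0.45) and in 8 of 14 for Efnb3 (progenitor control 4, progenitor mutants 1, 3 and 4, postmitotic controls 1 and 3, postmitotic mutants 2 and 3; 0.31 to 0.35).

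**Figure D5:**
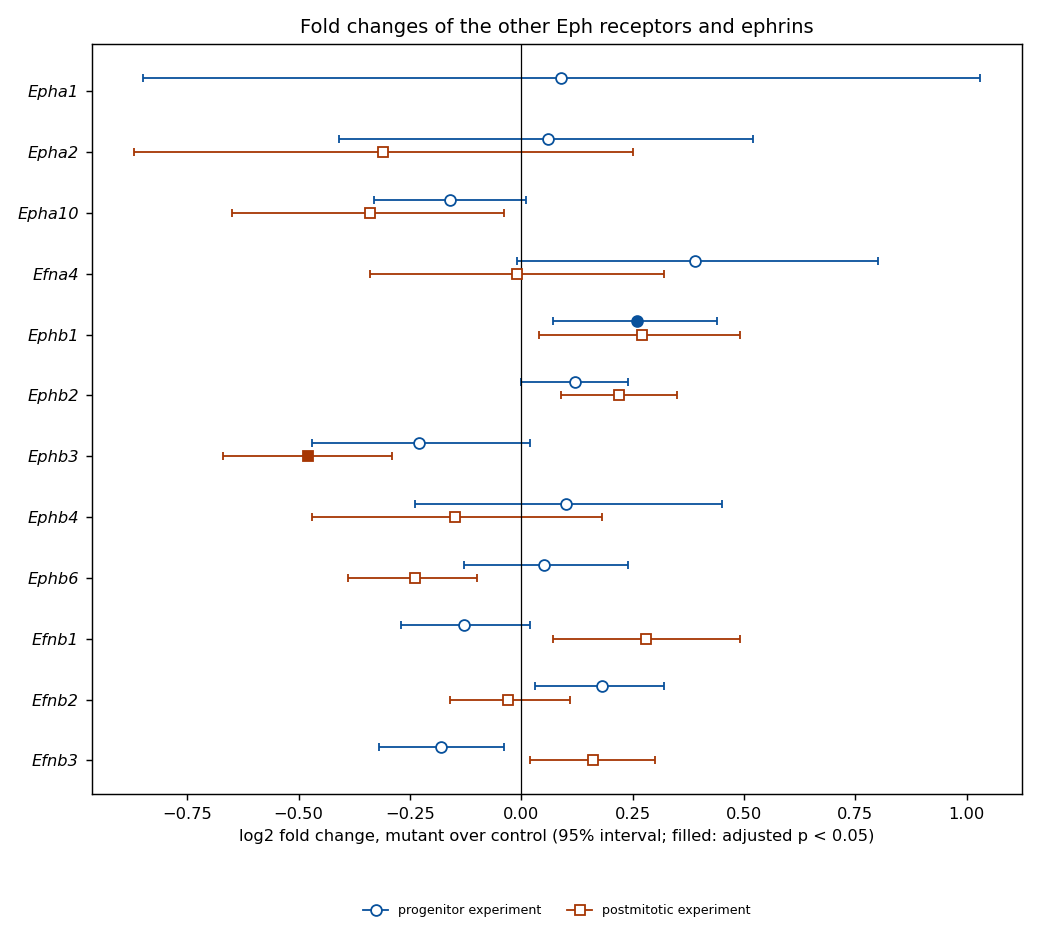
Log2 fold changes of libraries labelled mutant over control, with 95% intervals, for the other A-class and the B-class genes in the progenitor (circles) and postmitotic (squares) experiments; filled symbols passed an adjusted p of 0.05. Ephb1 (0.26, progenitor) and Ephb3 (-0.48, postmitotic) are the 2 filled points, and Epha1 was tested in the progenitor experiment only.

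Genes that carry Eph signals into the cell were read from a list of 25. In the progenitor experiment 4 rose and 5 fell (36%, against 23.4% of all tested genes), with a median log2 fold change of 0.01. In the postmitotic experiment 1 rose and 3 fell (16%, against 1.96%), with a median of -0.04. Between the experiments 0 of the 25 differed by edgeR (3 at an unadjusted p under 0.05), 2 by DESeq2 and 0 by limma-voom. Of all 15643 genes tested for this difference, edgeR called 6.94%, and 3644 had an unadjusted edgeR p under 0.05. DESeq2 called 1651 of the 15643 and limma-voom 1053. Ngef encodes ephexin-1, a guanine nucleotide exchange factor bound by EphA receptors, and it fell in both experiments. It changed from 183 ± 25.4 to 130 ± 11.0 CPM in the progenitor experiment (SD, n = 4 each; log2 fold change -0.50 ± 0.10) and from 95.4 ± 6.20 to 71.5 ± 5.19 CPM in the postmitotic one (SD, n = 3 each; -0.42 ± 0.08). Vav3, an exchange factor recruited by active Eph receptors, rose in both, by 1.19 ± 0.27 and 0.87 ± 0.17, from 2.92 ± 0.685 and 4.80 ± 1 CPM in controls. Its relative Vav2 rose in the progenitor experiment (0.42 ± 0.07), and Cdk5, a kinase that acts on ephexin-1, fell there (-0.25 ± 0.06). Chn2, a Rac inactivator of the chimaerin family, fell in the postmitotic experiment (-0.63 ± 0.09), as did Sipa1l1, a Rap inactivator of dendritic spines (-0.37 ± 0.07).

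Some of these calls rested on single libraries. The postmitotic call of Ngef was lost without control 2 or control 3 (edgeR adjusted p = 0.0717 and 0.0718) and in libraries 1 and 2 alone (0.117). That of Vav3 was lost without control 1, control 2 or mutant 2 (edgeR adjusted p = 0.0667, 0.1 and 0.0558) and in 1 fit of all libraries (0.142). That of Sipa1l1 was lost without control 2 or mutant 1 (edgeR adjusted p = 0.115 and 0.0581) and with the replicate block (edgeR adjusted p = 0.0651). With Y-linked CPM as a covariate the progenitor calls of Vav3 and Cdk5 were lost (edgeR adjusted p = 0.07 and 0.271).

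Ephrin-A gradients follow cortical areas, so 17 genes with area-restricted expression were read beside the members. In the postmitotic experiment 0 rose and 4 fell (23.5%, against 1.96% of all tested genes): Lmo4 (-1.25 ± 0.06) and Lmo3 (-1.01 ± 0.09), both LIM-only proteins, Cdh6, a cadherin (-0.35 ± 0.07), and Rorb, a nuclear receptor of sensory areas and layer IV (-0.35 ± 0.08). The summed level of all 17 genes was 1732 to 1874 CPM in controls and 1469 to 1624 CPM in libraries labelled mutant. Lmo4 and Lmo3 were called under each alternative. The call of Cdh6 was lost without mutant 1 or any 1 control, that of Rorb without any 1 library except mutant 3, and both with the replicate block, with edgeR adjusted p up to 0.0758 and 0.196 without a library and of 0.0729 and 0.0503 with the block. Both were also lost in 1 fit of all libraries (edgeR adjusted p = 0.173 and 0.497) and in libraries 1 and 2 alone (0.108 and 0.0634). Rorb was lost as well with limma-voom (adjusted p = 0.0729), and by edgeR without the robust step (0.0668) or with the Y-linked covariate (0.0706). In the progenitor experiment 1 of 17 passed (5.88%, against 23.4% of all tested genes), Nr2f1, an area-patterning nuclear receptor (-0.39 ± 0.11). That call was lost without progenitor control 1, 2 or 4 or mutant 2 (edgeR adjusted p up to 0.0824) and with the replicate block (edgeR adjusted p = 0.0778). The list's median log2 fold change was 0.00 in the postmitotic and -0.06 in the progenitor experiment. Its part in the change of Efna5 was not tested.

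Markers of other cells were measured for what the dissected tissue held. In the postmitotic experiment 4 of 11 deep-layer markers rose and 0 fell (36.4%, against 1.96% of all tested genes). Those that rose included Ldb2 (0.91 ± 0.09), a LIM cofactor, and Tbr1 (0.49 ± 0.07), a layer VI factor. No deep-layer marker was at 0. Of the 12 upper-layer markers 1 rose there, Lhx2 itself (0.29 ± 0.06), and 2 fell (25% called, against 1.96%). Those that fell were Cux1 (-0.47 ± 0.06) and Neurod6 (-0.61 ± 0.11), whose locus holds NexCre. The call of Lhx2 was lost without any 1 library except mutant 1, as given above. Leaving out postmitotic control 1 or control 2 ended the call of Neurod6 (edgeR adjusted p up to 0.08). In 1 fit of all libraries the postmitotic calls of Lhx2, Tbr1, Cux1 and Neurod6 were lost (edgeR adjusted p = 0.0555, 0.0605, 0.0822 and 0.185). By edgeR, 0 of 59 tested markers of other cells passed in the postmitotic experiment, against 1.96% of all tested genes. These markers were of astrocytes, radial glia and progenitors, microglia, endothelial and mural cells, the oligodendrocyte lineage and interneurons. At an unadjusted edgeR p under 0.05 there were 8, 6 of them astrocytic, and DESeq2 called 1 and limma-voom 0. Of all 17775 genes tested, 2024 had an unadjusted edgeR p under 0.05, and DESeq2 called 524 and limma-voom 260. All 11 astrocyte markers had negative log2 fold changes there, and their summed level was 933 to 1037 CPM in controls and 804 to 936 CPM in libraries labelled mutant. In the progenitor experiment, beside the change of Efna3, 1 of 11 astrocyte markers rose and 4 fell (summed level 1945 to 2531 CPM in controls, 1615 to 2021 CPM in libraries labelled mutant). There, 3 of 10 endothelial and mural markers rose (305 to 447 against 382 to 524 CPM), 3 of 9 tested markers of radial glia and progenitors rose (247 to 330 against 308 to 384 CPM) and 3 of 9 oligodendrocyte markers rose (488 to 570 against 535 to 621 CPM). The other 6 oligodendrocyte markers had negative log2 fold changes, and the median of that list was -0.11. The shares called of the endothelial and mural, radial glia, oligodendrocyte, microglial, interneuron and deep-layer lists were 18.2% to 33.3%. They lie around the 23.4% of all genes called in this experiment. Those of the astrocyte list (45.5%) and the upper-layer list (58.3%) lie above it. Of 10 microglial markers 2 fell (153 to 224 against 127 to 170 CPM), as did 2 of 10 interneuron markers (294 to 379 against 282 to 323 CPM) and 2 of 11 deep-layer markers (428 to 618 against 365 to 584 CPM). The calls of the microglial markers Ctss and Aif1 and of the deep-layer markers Cplx3 and Nr4a2 were lost with the Y-linked covariate. Those of the interneuron markers Slc32a1 and Gad1 were lost with it too (edgeR adjusted p = 0.072 and 0.169). The same held for the astrocyte marker S100b (0.139) and the oligodendrocyte-lineage marker Pdgfra (0.053). Leaving out 1 library ended those of Ctss (all except control 4 and mutant 1; edgeR adjusted p up to 0.085), Aif1 (all except mutants 1 and 4; up to 0.1), Cplx3 (controls 2 and 4, mutants 1, 2 and 3; up to 0.0709) and Nr4a2 (all except control 1 and mutant 4; up to 0.0758). The call of the mural marker Kcnj8 was lost with that covariate and without control 2 or 4 or mutant 1, 3 or 4 (up to 0.0697). Of the 12 upper-layer markers 5 rose and 2 fell. The part of these cells in the change of Efna3 was not tested.

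The genes whose pattern was most like that of Epha7 over the 14 libraries were Flrt3, Dpy19l1 and Sulf2. Likeness was the root-mean-square difference of log2 CPM, each gene taken relative to the control mean of its own experiment, and it was 0.12, 0.12 and 0.14 for these, against a median of 0.41 over all genes. Flrt3, an adhesion protein that binds latrophilins, gave 0.75 ± 0.10 in the postmitotic and 0.00 ± 0.08 in the progenitor experiment on the log2 scale. Dpy19l1 gave 0.69 ± 0.08 and 0.14 ± 0.08, and Sulf2, a heparan sulfate sulfatase, gave 0.61 ± 0.07 and 0.02 ± 0.07. Those most like Efna5 were Lifr, Prr16 and Lmo3 (0.14, 0.15 and 0.15, against a median of 0.45). Lifr, a cytokine receptor, gave -0.75 ± 0.08 and -0.00 ± 0.05, Prr16 gave -1.09 ± 0.19 and -0.13 ± 0.13, and Lmo3 gave -1.01 ± 0.09 and 0.06 ± 0.06. These libraries share labels and depth, so likeness is a description.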

How the data were processed

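RNA of 14 libraries was read from 2 count tables, 1 per experiment, deposited by the authors as raw read counts for each symbol. The submitters' processing notes name mm10, HISAT2, featureCounts and DESeq2. Versions, annotation and strand handling were not given in the sources used here. Deposited DESeq2 tables of the authors give, per the file headers, a mean normalised count (a signal), log2 fold changes, a test statistic (a score) and p-values. Missing values had been written as 0 there, also inside symbols, so 4 ligand symbols per table were restored. The files held 0 columns of other samples.

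Within each experiment edgeR 4.0.16 (R 4.3.3) was run with filterByExpr and TMM. The quasi-likelihood fit was robust, p-values were Benjamini-Hochberg adjusted over the genes tested, and a gene was called at an adjusted p under 0.05. SE is the log2 fold change over the square root of F, and CPM use TMM-scaled totals. The difference was the interaction in 1 fit of all libraries over shared symbols. The procedure was tested on simulated data with 50 changed genes per size of change. At a log2 change of 0.25 it recovered 9 (progenitor) and 3 (postmitotic), and at 0.5 it recovered 33 and 18. Changes of these sizes can thus be missed. Replicates differed beyond counting noise (chi-square over degrees of freedom, 6.74 to 20.5).

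The members and lists were chosen with earlier results of these data known. Named genes are all members and the rest of the Eph and ephrin family, Lhx2, up to 4 called genes of the signalling and area lists per experiment, up to 2 per cell type list, and the 3 genes most alike for members called in the postmitotic experiment with a change of at least 0.5 (log2 of CPM plus 0.5). Ctgf was listed but is not a symbol used in the tables. A further list is not reported here. Alternatives were other scaling factors and filters, DESeq2 1.42.0, limma-voom (limma 3.58.1), no robust step, a replicate block, 1 fit of all libraries, a Y-linked covariate, postmitotic libraries 1 and 2 alone, and leaving out each library in turn. For the difference, only DESeq2, its size factors alone, limma-voom, no filter, the replicate block and leaving out each library in turn were run. Positions are from GENCODE M21 and promoters from RefSeq, both on GRCm38.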

Additional observations from a re-analysis of the deposited data

Results flagged for a closer look

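In 2 of 22 groups of 4 progenitor libraries (the 10 members and Lhx2), 1 library stood apart from the other 3 by Dixon's criterion, which flags about 1 group in 20 by chance. Efna2 was lowest in progenitor mutant 4, at 22.8 CPM against 24.6 to 24.9 CPM in the other 3. Efna5 was highest in progenitor control 4, at 67.1 CPM against 56.9 to 57.8 CPM in the other 3, and without that control its log2 fold change was 0.02 instead of -0.04.

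The effect of the label differed between the experiments for 5 genes of the family by the test of the difference itself (postmitotic minus progenitor, log2 scale). The difference was 0.62 for Epha7, -0.83 for Efna5 and 0.41 for Epha5. Of the ephrin-B ligands it was 0.41 for Efnb1 and 0.34 for Efnb3. By edgeR on all 8 libraries, each progenitor fold change of these 5 missed the threshold, while Efnb3 passed there by DESeq2 (adjusted p = 0.0338) and by edgeR without control 1 (0.0334) or mutant 2 (0.0238).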

How the results depend on the processing

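The calls of Epha7 and Efna5 in the postmitotic experiment and in the difference held under every alternative run. The Y-linked covariate was not run for the difference. In the progenitor experiment the count of members called was 1 in the reported fit, 0 with the Y-linked covariate and 0 in 1 fit of all libraries by edgeR (1 and 1 at an unadjusted p under 0.05), and in the postmitotic experiment it was 3 and rose to 5 without a filter (Epha3 and Epha6 added) and to 4 with DESeq2, and fell to 2 with no scaling factors, limma-voom, no robust step, the replicate block, 1 fit of all libraries, and libraries 1 and 2 alone. Without a filter 723 of all genes were called in place of 348. An unadjusted edgeR p under 0.05 was met in the progenitor experiment by 3766 of 15295 genes with the Y-linked covariate. In 1 fit of all libraries it was met there by 5689 of 15643. On leaving out 1 library the counts were 1 to 1 (progenitor), 2 to 4 (postmitotic) and 2 to 3 (difference). Where 2 libraries remain in a group, their spread is estimated together with that of the other group.

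Same-numbered libraries did not deviate together (r from -0.445 to 0.0762 in the progenitor and from -0.191 to 0.0366 in the postmitotic experiment). Other pairs ran from -0.424 to 0.515 and from -0.0885 to 0.182. With so few libraries this cannot show whether equal numbers mark a pair, and the reported fit used no pairing. With the replicate block 1, 2 and 2 members were called in the progenitor experiment, the postmitotic experiment and the difference, and the calls over all genes were 3073, 246 and 659.

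Over members and alternatives, 512 of 560 values kept their direction and their side of the threshold, 23 lost a call, 5 gained one and 20 changed sign, none of these called in either fit. Direction changed with the Y-linked covariate for Epha3 (-0.19), Efna1 (0.20) and Ephb6 (-0.10) in the progenitor experiment, with limma-voom for Epha1 (-0.11, progenitor) and Efna4 (0.01, postmitotic), with no scaling factors for Epha4 (-0.00, postmitotic) and with libraries 1 and 2 alone for Epha4 (-0.01) and Efna4 (0.06, both postmitotic). Leaving out 1 library changed direction within these ranges: in the progenitor experiment Epha3 -0.05 to 0.11, Epha8 -0.06 to 0.08, Efna1 -0.14 to 0.12, Efna5 -0.09 to 0.05, Epha1 -0.28 to 0.40, Epha2 -0.05 to 0.30, Ephb6 -0.00 to 0.11 and Lhx2 -0.02 to 0.08. In the postmitotic experiment they were Epha4 -0.03 to 0.09, Efna1 -0.03 to 0.24, Efna2 -0.23 to 0.06, Efna3 -0.31 to 0.02, Efna4 -0.14 to 0.06 and Efnb2 -0.06 to 0.00, and for the difference Efna2 -0.05 to 0.23 and Efna3 -0.09 to 0.23. The cause was not tested. The calls over all genes in the progenitor experiment were 948 with the Y-linked covariate and 2383 and 2389 without mutant 3 and mutant 1, against 3577. DESeq2 gave 524 calls in the postmitotic experiment and 1651 in the difference.

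Efna1 had 58 to 123 and Epha6 132 to 404 counts per library, the fewest of the members, and their 95% intervals were the widest in both experiments.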
